A study of Saccharomyces cerevisiae with 11 samples.

Results

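Budding yeast (Saccharomyces cerevisiae) carrying a plasmid for human CFTR was set against yeast carrying a vector plasmid, using only the 4 vector arrays whose sample codes are 11 to 14. CFTR, the cystic fibrosis transmembrane conductance regulator, is a chloride channel of the ABC transporter family. The comparison took 8 of the 11 arrays in hand: all 4 CFTR arrays (codes 7 to 10) and vector replicates 4 to 7 (codes 11 to 14). Vector replicates 1 to 3 (codes 3 to 5) were left out of the comparison and are shown only as a description. The arrays were chosen by group label and code, not by any measured value. CFTR carried an HA tag and was expressed from a PGK promoter on pRS426PPGK-CFTR-3HA. The control plasmid was pRSGPD426, which has a GPD promoter, so the plasmids differ in promoter as well as in the CFTR gene. All cultures grew at 26 °C in selective medium until mid log phase. RNA abundance was measured as scaled probe set intensity on Affymetrix arrays, and the labels mark the vector arrays as re-analysed. The sources used here name no strain. The labels do not tie arrays to separate cultures, so the p-values rest on differences between arrays that may be partly technical.

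A foreign membrane protein is made at the endoplasmic reticulum (ER), where chaperones fold it and where misfolded copies are extracted, tagged with ubiquitin and degraded by the proteasome. In yeast the unfolded protein response (UPR), set off by Ire1 and the transcription factor Hac1, raises ER chaperones, while the heat shock factor Hsf1 raises cytosolic chaperones and Rpn4 raises proteasome genes. When CFTR is expressed in yeast much of it is held in the ER and degraded by this route, which made the system a model of CFTR turnover. Yeast genes for the making and uptake of thiamine, biotin, zinc, copper and phosphate respond to the supply of each nutrient in the medium, and these genes are described below beside the folding genes.

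Levels are log2 of an intensity that had been scaled so that each array averages 1. The medians of the 8 arrays over 10715 probe sets lay between 0.219 and 0.237. Of the probe sets, 5498 matched exactly 1 gene, which gave 5449 genes to test. The 5216 probe sets that matched none of these genes, leaving aside 1 that named several, served as background, with a median level of -3.88, and their 95th percentile, -1.19, is called the background limit. The number of arrays limits the precision. Genes that mark MATalpha cells were above that limit on all 8 arrays, for example the pheromone gene MF(ALPHA)1 at 3.09 ± 0.02 in CFTR and 3.45 ± 0.01 in vector (SD, n = 4 each), while 5 of the 6 MATa markers had both group means below it. No gene tested stands for CFTR itself, so its expression was not checked here. URA3, the selection marker of pRS426 plasmids, averaged 3.59 ± 0.08 in CFTR and 3.00 ± 0.14 in vector (SD, n = 4 each), and rose (limma, adjusted p = 0.00054). Vector replicates 1 to 3 had 3.51, 3.37 and 3.92, so the lower level is found in vector codes 11 to 14 and not in the other vector arrays. TDH3 and PGK1, whose promoters drive the control and CFTR plasmids, had log2 fold changes of -0.13 (adjusted p = 0.045, with groups that overlapped) and -0.08 (adjusted p = 0.15). The TDH3 call was lost without any 1 of 7 arrays, CFTR replicate 4 being the exception, with adjusted p between 0.055 and 0.11.

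The arrays fell into blocks that the group labels do not describe. Vector replicates 5, 6 and 7 differed from each other by an SD of only 0.0975 to 0.130 across genes (log2), near copies of one another, while each differed from vector replicate 4 by 0.296 to 0.341. The 6 pairs of CFTR arrays differed by 0.153 to 0.292, and CFTR arrays differed from vector replicates 4 to 7 by 0.329 to 0.490. Vector replicate 3, which was left out, lay nearer the CFTR arrays over all genes, at an SD of 0.163 to 0.278, than vector replicates 4 to 7, at 0.379 to 0.483, or vector replicates 1 and 2, at 0.504 and 0.515. The part of these blocks in the results was not tested, and since each group has its own range of sample codes, group and code range cannot be told apart. Each list was therefore also counted with vector replicates 5, 6 and 7 averaged into 1 array, an alternative chosen after seeing the data. Not every such count is printed below, and a list without one need not have kept its count.

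Of the 5449 genes, 1466 rose in CFTR (26.9%) and 927 fell (17.0%), 2393 in all or 43.9% (limma, Benjamini-Hochberg adjusted p under 0.05). Most changes were small, with a median absolute log2 fold change of 0.315 among called genes, and 23 genes rose (0.422%) and 47 fell (0.863%) by at least 2-fold. The range ran between a fall of 3.85 and a rise of 2.39 on the log2 scale, and the median over all genes was 0.04. Among the 15 largest rises were chaperone genes of the cytosol (SSA4) and mitochondria (MDJ1 and HSP78), genes known for induction under low oxygen, and enzymes of purine and vitamin B6 synthesis. The 15 largest falls were led by genes of thiamine and biotin uptake and synthesis. Of the called genes, 442 had both group means under the background limit and 666 had at least 1, so their fold changes are uncertain in size. With vector replicates 5, 6 and 7 averaged, 853 genes rose and 511 fell (25% called), of which 852 and 509 had also been called in that direction with every array as a replicate.

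**Figure D1:**
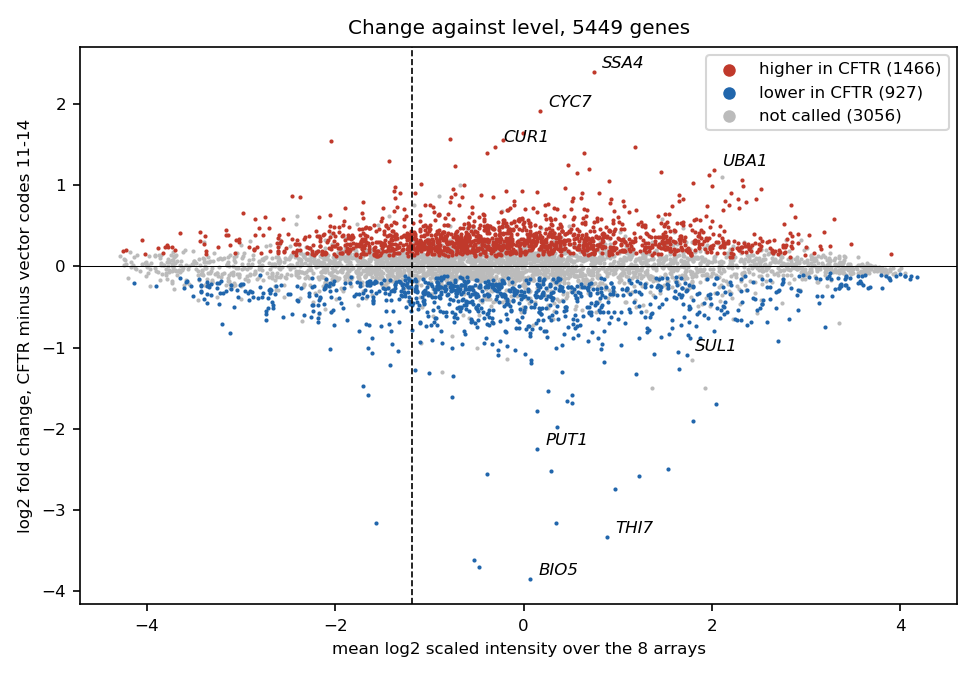
Each point is 1 of 5449 genes, with its mean log2 scaled intensity over the 8 arrays on the x axis and its log2 fold change, CFTR minus vector codes 11 to 14, on the y axis. Red points are the 1466 genes called higher and blue points the 927 called lower, and the dashed line marks the background limit of -1.19. SSA4 has the largest rise, 2.39, and BIO5 the largest fall, -3.85.

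**Figure D2:**
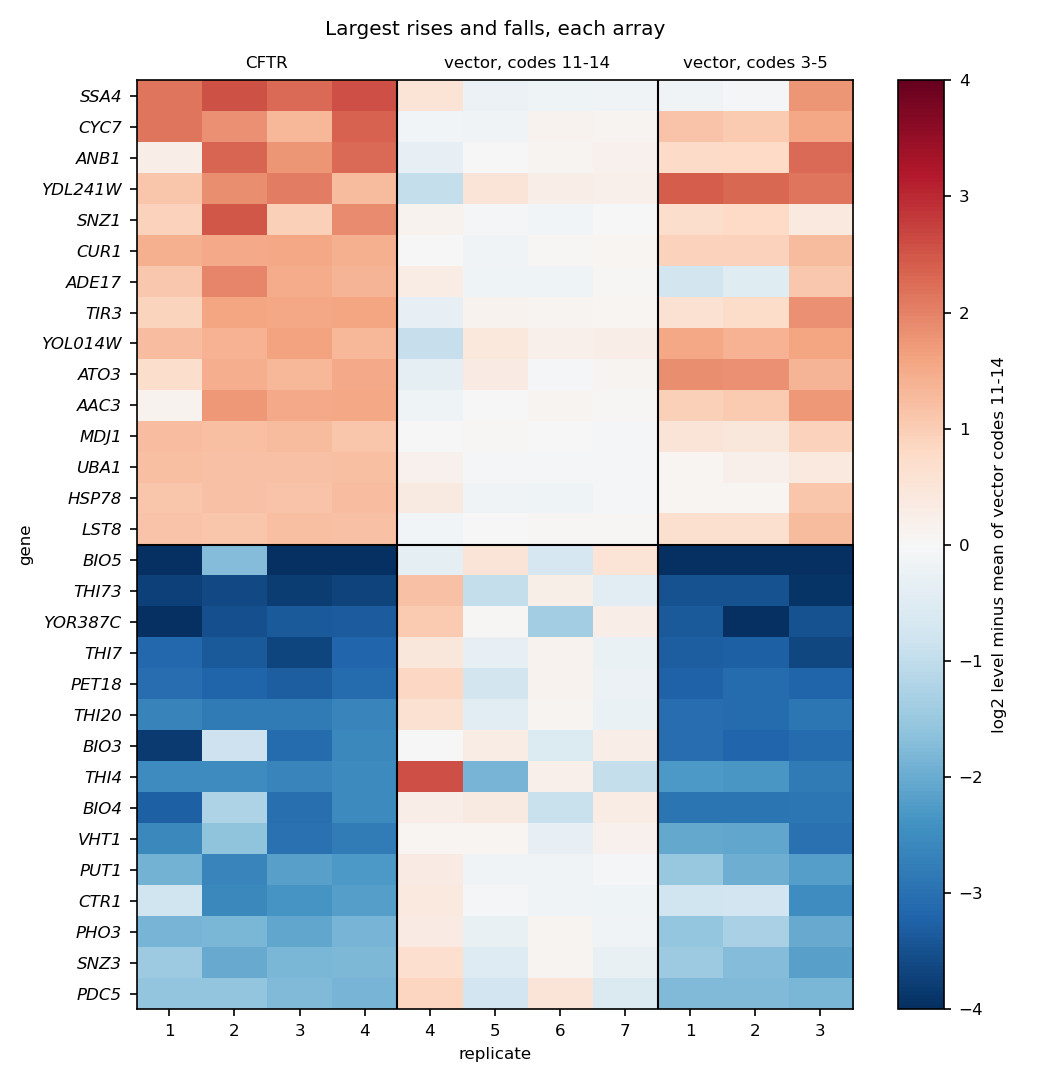
Rows are 30 genes, 15 with the largest rises above 15 with the largest falls, columns are arrays, and colour is the log2 level minus the mean of vector codes 11 to 14. The colour scale ends at 4 on either side. Vector replicates 1 to 3, at the right and outside the comparison, are about as low as the CFTR arrays for THI7, THI73 and PET18, and vector replicate 3 is also close to the CFTR arrays for SSA4, HSP78 and LST8.

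Cytosolic chaperones rose together. SSA4, a stress-inducible Hsp70, stood at 1.70, 2.11, 1.82 and 2.14 on the CFTR arrays, against 0.11, -0.69, -0.62 and -0.60 on the vector arrays, a 5.25-fold difference (log2 fold change 2.39, SE 0.18, limma adjusted p = 6.7e-05). All 4 CFTR arrays lay far above all 4 vector arrays, and vector replicate 4 was the highest of the vector arrays. In the vector arrays outside the comparison SSA4 stood at -0.58, -0.52 and 1.32, with replicate 3 nearer the CFTR level. Of the 17 measured genes of the cytosolic Hsp70 system, 12 rose (70.6%, against 26.9% of all genes) and none fell, with a median log2 fold change of 0.40. The J protein SIS1, which brings substrates to Hsp70, averaged 3.00 ± 0.08 in CFTR and 2.05 ± 0.09 in vector (SD, n = 4 each). YDJ1, the main cytosolic J protein, averaged 2.88 ± 0.03 in CFTR and 2.05 ± 0.12 in vector. FES1, a nucleotide exchange factor for Hsp70, rose 1.77-fold. The 5 genes of the list that did not pass were SSB1, SSB2, SSZ1, CAJ1 and XDJ1, of which the first 3 encode chaperones of the ribosome.

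Hsp90 and its partners followed the same direction, with 10 of 12 measured genes higher (83.3%, against 26.9% of all genes) and none lower. The median was 0.35. HSP82, the inducible Hsp90, stood at 2.49, 2.55, 2.60 and 2.49 on the CFTR arrays, against 1.69, 1.28, 1.26 and 1.39 on the vector arrays (log2 fold change 1.13, SE 0.09, adjusted p = 8e-05). The groups were well apart, and vector replicate 3 had 2.24, between them. HSP82 and its near-identical copy HSC82 may share signal, as may SSA1 and SSA2, so single values of these pairs are uncertain. STI1, which joins Hsp70 to Hsp90, AHA1, which stimulates the Hsp90 ATPase, and the cyclophilin CPR6 rose 1.75-fold, 1.75-fold and 1.69-fold. CNS1 and PPT1 did not pass the test.

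Among 10 genes of disaggregation and small heat shock proteins 6 rose (60%, against 26.9% of all genes) and 2 fell (20%, against 17.0%). The median was 0.70. HSP104, the disaggregase that pulls proteins out of aggregates, averaged 2.85 ± 0.04 in CFTR and 1.78 ± 0.19 in vector (SD, n = 4 each, adjusted p = 8e-05). CUR1, a factor that sorts misfolded proteins, stood at 0.38, 0.48, 0.49 and 0.37 on the CFTR arrays, against -1.02, -1.19, -1.0 and -0.97 on the vector arrays. Its groups were far apart with little spread in either (log2 fold change 1.48, SE 0.06, adjusted p = 8.4e-06). Its paralog BTN2 rose by 0.90, and the small heat shock protein HSP42 by 0.80. HSP12, a membrane-bound stress protein, fell by 0.92 on the log2 scale (adjusted p = 0.0074), as did HSP31. HSP26 had 2.13, 2.04, 1.80 and 2.22 in CFTR, against 3.05, 1.25, 1.33 and 1.63 in vector, so that vector replicate 4 lay above every CFTR array and the test was not passed (adjusted p = 0.62). Without vector replicate 4 HSP26 passed (log2 fold change 0.64, adjusted p = 0.0036). HSF1 itself, which encodes the heat shock factor, was at -1.04 ± 0.06 in CFTR and -0.90 ± 0.11 in vector (adjusted p = 0.11). In mitochondria, the J protein MDJ1 rose 2.30-fold and the disaggregase HSP78 2.23-fold, while 10 of 13 measured mitochondrial chaperone genes were not called.

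**Figure D3:**
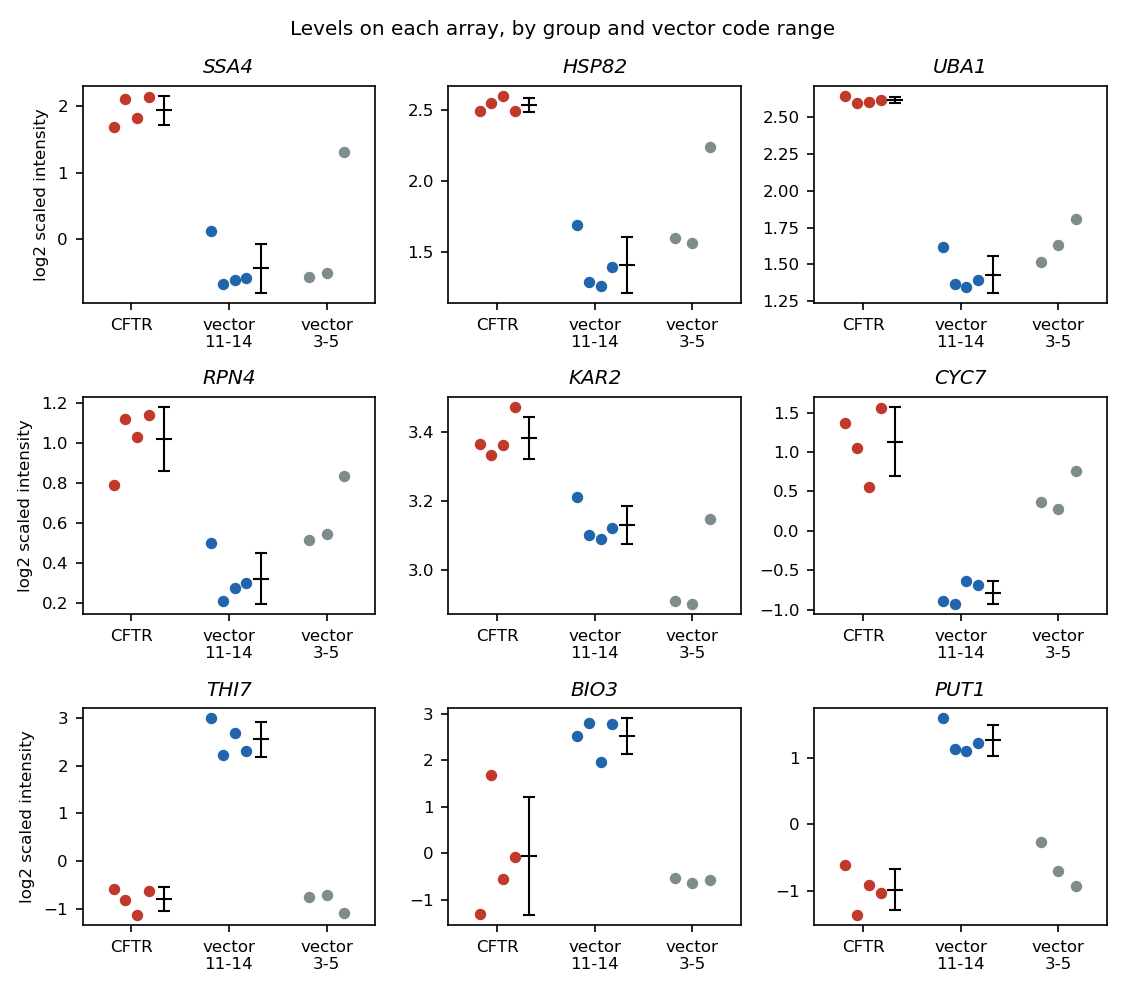
Levels of 9 genes on each array (log2 scaled intensity), with CFTR in red, vector codes 11 to 14 in blue and vector codes 3 to 5, outside the comparison, in grey. The bars beside the first 2 groups show the mean ± SD over 4 arrays. In every panel the CFTR arrays lie apart from vector codes 11 to 14, and for SSA4, HSP82, UBA1 and KAR2 also above all 3 grey points, while for THI7 and PUT1 the grey points lie near the CFTR level.

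Ubiquitin activation and the proteasome rose as well. UBA1, the E1 enzyme that activates ubiquitin, stood at 2.65, 2.59, 2.61 and 2.62 on the CFTR arrays, against 1.62, 1.37, 1.34 and 1.39 on the vector arrays, a 2.28-fold difference (log2 fold change 1.19, SE 0.06, adjusted p = 2.1e-05). Vector replicates 1 to 3 had 1.51, 1.63 and 1.81, so all 7 vector arrays lay below the lowest CFTR array. Of 40 measured proteasome genes 28 rose (70.0%) and 3 fell, with a median of 0.30. RPN13, a ubiquitin receptor of the proteasome, averaged 1.46 ± 0.02 in CFTR and 0.66 ± 0.08 in vector (SD, n = 4 each, adjusted p = 3.9e-05). RPT2, an ATPase of the base, and PRE5, of the catalytic core, rose 1.60-fold and 1.45-fold. The 3 falls were in RPN12, UMP1 and NAS2, of which UMP1 and NAS2 encode assembly factors. RPN4, the activator of proteasome genes, stood at 0.79, 1.12, 1.03 and 1.14 on the CFTR arrays, against 0.50, 0.21, 0.28 and 0.30 on the vector arrays (adjusted p = 0.00081). Its groups did not overlap, and vector replicate 3 had 0.84. The proteasome count was 25 with vector replicates 5, 6 and 7 averaged. Of 19 ubiquitin conjugation genes, UBA1 included, 5 rose (26.3%) and 3 fell (15.8%), with a median of -0.02. These shares were near those of all genes, 26.9% and 17.0%. Only UBA1 remained among the rises with vector replicates 5, 6 and 7 averaged. Against vector codes 3 to 5 the median of the proteasome list was 0.06, and that of all genes -0.15.

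Genes of the ER rose by smaller amounts. KAR2, the ER Hsp70 and a standard readout of the UPR, stood at 3.36, 3.33, 3.36 and 3.47 on the CFTR arrays, against 3.21, 3.10, 3.09 and 3.12 on the vector arrays (1.19-fold, log2 fold change 0.25, SE 0.04, adjusted p = 0.0023). Every CFTR array was above every vector array, replicates 1 to 3 included (2.91, 2.90 and 3.15). Of 24 measured UPR targets 14 rose (58.3%, against 26.9% of all genes) and 2 fell, with a median of 0.25. ERO1, which drives disulfide formation in the ER, rose 1.53-fold, SCJ1, a J protein of the ER lumen, 1.46-fold, and ERV29, a cargo receptor that leaves the ER, 1.32-fold. ULI1, a UPR-induced gene chosen with its values in view, averaged -0.86 ± 0.35 in CFTR and -1.76 ± 0.10 in vector (SD, n = 4 each), the vector mean being under the background limit, and did not pass with a floor there (0.33, adjusted p = 0.18). HAC1, whose mRNA is spliced when the response is on, rose by 0.26 (adjusted p = 0.021), and lost its call without CFTR replicate 2 (0.26, adjusted p = 0.051) or CFTR replicate 4 (0.23, adjusted p = 0.058), and with vector replicates 5, 6 and 7 averaged (0.21, adjusted p = 0.098). Its splicing cannot be read from these values. IRE1, the sensor, fell by 0.61 (adjusted p = 0.00034), to -1.32 ± 0.11 in CFTR, against -0.70 ± 0.08 in vector. With vector replicates 5, 6 and 7 averaged 8 UPR targets rose.

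Of 25 genes of ER-associated degradation, the route that returns misfolded proteins to the cytosol, 12 rose and UBX2 fell. The share higher was 48.0%, against 26.9% of all genes, and the list's median was 0.20. RAD23, a shuttle that carries ubiquitinated proteins to the proteasome, averaged 0.93 ± 0.06 in CFTR and 0.33 ± 0.12 in vector (SD, n = 4 each). NPL4, a partner of the Cdc48 ATPase, rose 1.41-fold and PNG1, which removes sugar chains from misfolded glycoproteins, 1.34-fold. The ligase genes HRD1 and SSM4 did not pass the test. Leaving out vector replicate 5 or vector replicate 7 gave 7 rises in this list, and averaging vector replicates 5, 6 and 7 gave 5. Glycosylation genes moved in number but by little, with 21 of 30 higher (70.0%), 1 lower and a median of 0.20. ALG13, of lipid-linked sugar synthesis, rose 1.41-fold and PMT3, an O-mannosyltransferase, 1.43-fold. With vector replicates 5, 6 and 7 averaged 8 of these 30 rose. ER translocation genes had 11 of 27 higher and 2 lower, with SGT2, which hands tail-anchored proteins to the GET pathway, at 2.29 ± 0.02 in CFTR and 1.72 ± 0.02 in vector, and SEC72, of the translocon, 1.46-fold higher. The coats of transport vesicles had 7 of 25 genes higher and 1 lower (28% higher), close to the share of all genes, and 4 higher with vector replicates 5, 6 and 7 averaged. Against vector codes 3 to 5 the medians of the UPR, degradation, glycosylation and translocation lists were 0.11, -0.04, -0.10 and -0.08. All of these lay above the median of all genes there, -0.15.

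**Figure D4:**
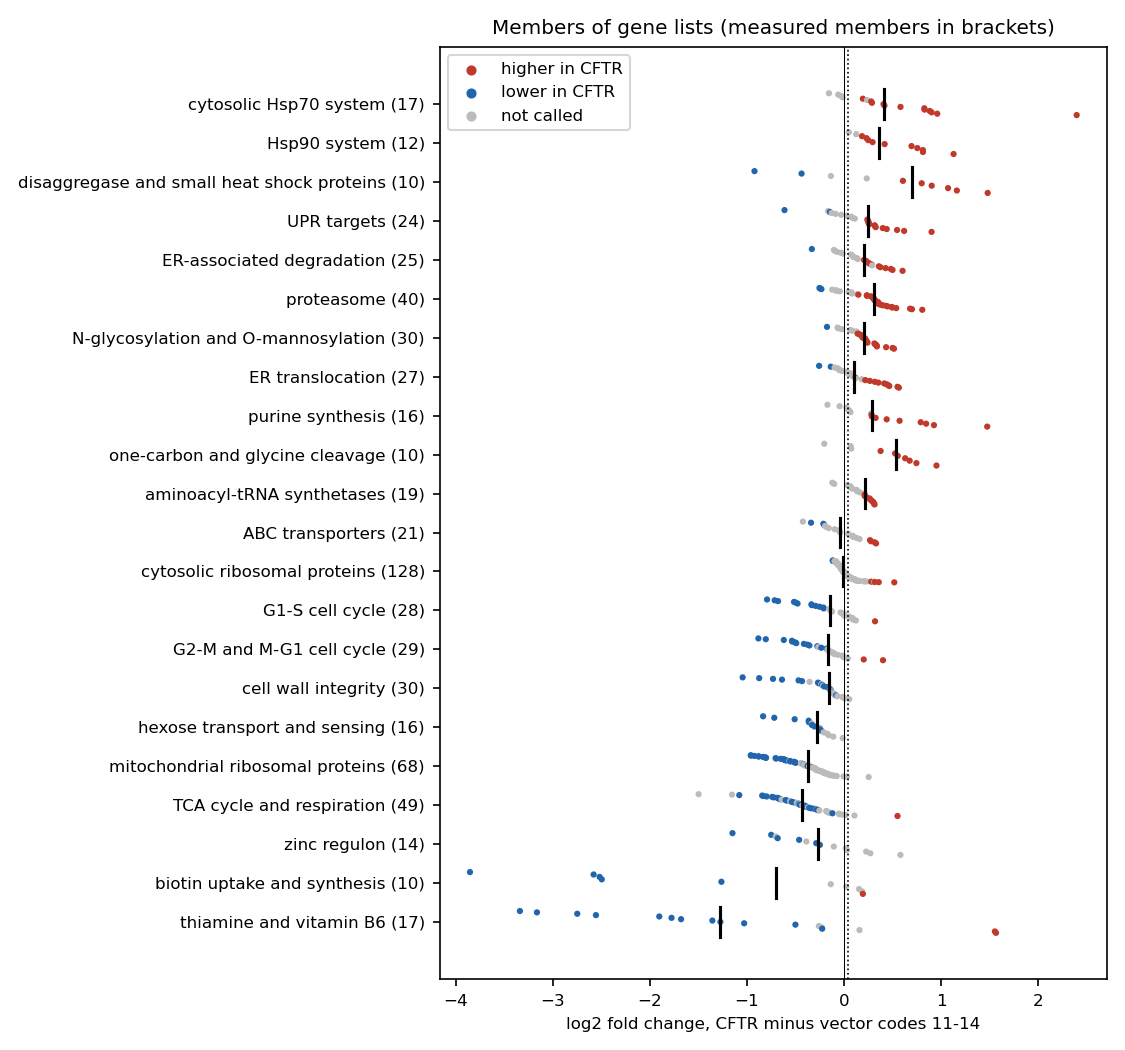
Each point is a measured gene of the named list, placed by its log2 fold change, CFTR minus vector codes 11 to 14. Red marks genes called higher, blue genes called lower and grey genes not called. The black bar is the list's median and the dotted line the median of all genes tested, 0.04. Chaperone and proteasome lists lie right of the line, and the thiamine list has its median at -1.27.

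Thiamine genes gave the largest concerted falls. Of 17 measured genes of thiamine and vitamin B6 metabolism 12 fell (70.6%, against 17.0% of all genes) and 2 rose, with a median of -1.27. THI7, the thiamine transporter, stood at -0.58, -0.81, -1.13 and -0.62 on the CFTR arrays, against 3.00, 2.22, 2.68 and 2.30 on the vector arrays, 10.1-fold lower (log2 fold change -3.34, SE 0.19, adjusted p = 2.1e-05). The groups were separated by more than the spread of either. On vector replicates 1 to 3, however, THI7 stood at -0.76, -0.71 and -1.09, within the CFTR range, so the high level is found in vector codes 11 to 14 and not in the other vector arrays. THI20, which phosphorylates the pyrimidine precursor of thiamine, averaged -0.40 ± 0.10 in CFTR and 2.35 ± 0.46 in vector (SD, n = 4 each), and -0.69, -0.74 and -0.53 in vector replicates 1 to 3. PHO3, an acid phosphatase that frees thiamine from its phosphates, fell 3.74-fold, and PDC5, a minor pyruvate decarboxylase known to be induced when thiamine is short, fell 3.23-fold.

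THI4, the thiazole synthase, showed how far the vector arrays differed among themselves. It stood at -1.61, -1.62, -1.76 and -1.67 on the CFTR arrays, all under the background limit, against 3.48, -0.97, 1.11 and -0.05 on the vector arrays (adjusted p = 0.030). The vector arrays spanned more than the difference between the group means, with replicate 4 highest and replicate 5 lowest. Its call was lost without CFTR replicate 2, 3 or 4 or vector replicate 6, with adjusted p between 0.062 and 0.065. The call was also lost with values floored at the background limit (log2 fold change -2.08, adjusted p = 0.13). THI73, a thiamine-regulated transporter-like gene, PET18 and YOR387C, of which the last has no known role, fell by 3.71, 3.16 and 3.62, and all 3 had CFTR means under the background limit. THI73 and YOR387C were not members of the thiamine and vitamin B6 list. The 2 rises in the list, SNZ1 and SNO1, belong to vitamin B6 synthesis. SNZ1 stood at -0.07, 1.47, -0.05 and 0.91 on the CFTR arrays, against -0.86, -1.04, -1.11 and -0.97 on the vector arrays (adjusted p = 0.0050), and SNO1, named after its values were seen, had a log2 fold change of 1.55 with both means under the limit, which was 0.24 (adjusted p = 0.43) with values floored at the limit. SNZ3, whose near copy SNZ2 may share its signal, fell by 1.78. Against vector codes 3 to 5 the median of the list was -0.01, and that of all genes -0.15.

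Biotin genes fell as well. The list was drawn up after values were seen, and 5 of its 10 measured genes fell (50%, against 17.0% of all genes) and 1 rose. BIO5, a transporter of a biotin precursor, stood at -3.11, 0.27, -2.60 and -2.0 on the CFTR arrays, against 1.62, 2.51, 1.31 and 2.53 on the vector arrays, 14.4-fold lower (log2 fold change -3.85, SE 0.67, adjusted p = 0.0025). CFTR replicate 2 was well above the other 3 CFTR arrays, which lay under the background limit, yet below every vector array. BIO3 and BIO4, enzymes of biotin synthesis, fell by 2.58 and 2.52, again with CFTR replicate 2 the highest of its group at 1.69 and 0.32. VHT1, the biotin transporter, averaged 0.29 ± 0.61 in CFTR and 2.79 ± 0.23 in vector (SD, n = 4 each, adjusted p = 0.00032). BIO2, biotin synthase, named after its values were seen, fell by 1.26 (adjusted p = 0.0083, and 0.061 with vector replicates 5, 6 and 7 averaged). In vector replicates 1 to 3 BIO5 stood at -2.99, -2.96 and -2.59, inside the CFTR range.

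Purine and one-carbon genes rose. ADE17, which carries out the last steps of inosine monophosphate synthesis, stood at 1.54, 2.41, 1.92 and 1.82 on the CFTR arrays, against 0.75, 0.28, 0.27 and 0.49 on the vector arrays (2.77-fold, adjusted p = 0.00055). CFTR replicate 2 was the highest and the groups did not overlap. Vector replicates 1 to 3 had -0.29, -0.04 and 1.54. Of 16 measured purine genes 9 rose (56.2%, against 26.9% of all genes) and none fell, with a median of 0.28. The count was 9 also with vector replicates 5, 6 and 7 averaged. ADE4, the first committed step, rose 1.90-fold, ADE8 1.79-fold and ADE1 1.73-fold. In the one-carbon and glycine cleavage list 7 of 10 rose and none fell (median 0.54), and 5 rose with vector replicates 5, 6 and 7 averaged. MTD1, which oxidises a folate carrier of one-carbon units, averaged -0.27 ± 0.28 in CFTR and -1.22 ± 0.03 in vector (SD, n = 4 each), the vector mean lying just under the background limit. GCV2, a subunit of the glycine cleavage enzyme, rose 1.67-fold and SHM2, a serine hydroxymethyltransferase, 1.44-fold.

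Amino acid synthesis genes were closer to the share of all genes (26.9% higher), with 12 of 49 higher (24.5%), 5 lower and a median of 0.10. The rises numbered 7 without CFTR replicate 2 and 6 with vector replicates 5, 6 and 7 averaged. HIS4, of histidine synthesis, stood out at 2.82 ± 0.20 in CFTR and 1.84 ± 0.14 in vector (SD, n = 4 each, adjusted p = 0.00032). GCN4, the activator of amino acid genes, which is controlled mainly in translation, was at 3.37 ± 0.06 in CFTR and 3.47 ± 0.03 in vector (adjusted p = 0.053). Of 19 measured aminoacyl-tRNA synthetase genes 9 rose and none fell, all by small amounts, the threonine enzyme THS1 by 0.31. Of 12 pyrimidine genes, URA3 among them, 5 rose and the activator gene PPR1 fell.

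Respiratory genes fell in 3 of the 4 CFTR arrays. Of 49 measured genes of the TCA cycle and respiration 26 fell (53.1%, against 17.0% of all genes), with a median of -0.43. COX5B, the subunit used under low oxygen, rose. The mean level of the list was 2.16, 1.47, 1.54 and 1.65 on the CFTR arrays, against 2.03, 2.15, 2.23 and 2.18 on the vector arrays. CFTR replicate 1 therefore lay among vector replicates 4 to 7 and the other 3 lay below all of them. Outside the comparison, vector replicates 1 to 3 had 1.94, 1.91 and 1.60, replicate 3 lying within the range of those 3 CFTR arrays. ATP14, a subunit of the ATP synthase, stood at 1.92, 1.05, 1.19 and 1.11 on the CFTR arrays, against 2.06, 2.21, 2.26 and 2.12 on the vector arrays (adjusted p = 0.0056, and 0.052 with vector replicates 5, 6 and 7 averaged). Without CFTR replicate 1 the list had 42 falls, without CFTR replicate 2 or 3 it had 15, and with vector replicates 5, 6 and 7 averaged it had 3. Mitochondrial ribosomal proteins gave the same pattern, with 26 of 68 lower (38.2%), none higher and a median of -0.37. Their mean was 0.63, -0.06, 0.20 and -0.01 on the CFTR arrays, against 0.28, 0.72, 0.70 and 0.70 on the vector arrays. CFTR replicate 1 thus lay near 3 vector arrays and vector replicate 4 stood apart from its group. On vector replicates 1 to 3 the mean was 0.62, 0.62 and 0.11. The count of falls was 53 without CFTR replicate 1, 43 without vector replicate 4, and 15 without CFTR replicate 2 or 4 or vector replicate 5 or 7. With vector replicates 5, 6 and 7 averaged limma called none, and 16 had an unadjusted p under 0.05.

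Genes known for expression under low oxygen, a list drawn up after values were seen, split along the same arrays. ANB1, the low-oxygen form of translation factor eIF5A, stood at -0.58, 1.49, 0.95 and 1.43 on the CFTR arrays, against -1.14, -0.81, -0.72 and -0.64 on the vector arrays (adjusted p = 0.012). AAC3, a mitochondrial ADP/ATP carrier, stood at -1.22, 0.40, 0.16 and 0.20 on the CFTR arrays, against -1.53, -1.32, -1.24 and -1.29 on the vector arrays (adjusted p = 0.013). With vector replicates 5, 6 and 7 averaged neither ANB1 nor AAC3 passed (adjusted p = 0.063 and 0.070). AAC3, whose vector mean was under the background limit, also lost its call with a floor there (1.08, adjusted p = 0.052). For both ANB1 and AAC3, CFTR replicate 1 was closest to vector replicates 4 to 7 and the other 3 were far above. Vector replicates 1 to 3, outside the comparison, had -0.06, -0.03 and 1.42 for ANB1. For AAC3 they had -0.40, -0.31 and 0.38, so in both genes vector replicate 3 stood near those 3 CFTR arrays. HEM13, of heme synthesis, named after its values were seen, had 1.12, 3.22, 3.09 and 3.22 in CFTR, against 1.06, 2.0, 1.31 and 1.88 in vector, with overlap (adjusted p = 0.085), and it passed without CFTR replicate 1 (1.62, adjusted p = 0.00099). CYC7, the low-oxygen cytochrome c, was high on all 4 CFTR arrays at 1.36, 1.05, 0.55 and 1.56, against -0.89, -0.93, -0.64 and -0.68 on the vector arrays (3.77-fold, adjusted p = 0.00027). On vector replicates 1 to 3 HEM13 stood at 1.20, 1.23 and 3.25, and CYC7 at 0.36, 0.27 and 0.76. TIR3, a cell wall mannoprotein, rose 2.63-fold, and in all the list had 7 of 26 genes higher (26.9%, the share of all genes) and 4 lower. The list had 11 rises without CFTR replicate 1, 4 without CFTR replicate 2 or 4 or vector replicate 6, and 2 with vector replicates 5, 6 and 7 averaged.

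Among 14 zinc-responsive genes 6 fell (42.9%, against 17.0% of all genes) and none rose, with a median of -0.27. ZAP1, the zinc-sensing activator, averaged -0.50 ± 0.22 in CFTR and 0.65 ± 0.33 in vector (SD, n = 4 each, adjusted p = 0.0011), and ZRT1, the high-affinity zinc transporter, fell by 0.25. In vector replicates 1 to 3 ZAP1 stood at -1.09, -0.97 and -1.25, below the CFTR arrays. The hexose transport and sensing list had 9 of 16 lower (56.2%) and none higher (median -0.28), among them HXT4, a glucose transporter, by 0.51 and MIG1, the glucose repressor, by 0.83. That count was 4 with vector replicates 5, 6 and 7 averaged. HXT7 and its near copy HXT6 cannot be told apart. In lists drawn up after values were seen, PUT1, the proline oxidase, fell 4.76-fold, to -0.62, -1.37, -0.91 and -1.04 in CFTR, against 1.60, 1.13, 1.11 and 1.22 in vector (adjusted p = 6e-05). CTR1, the high-affinity copper transporter, had 0.57, -1.23, -1.01 and -0.86 in CFTR, against 1.73, 1.28, 1.20 and 1.19 in vector (adjusted p = 0.0028), with CFTR replicate 1 again nearest the vector arrays. The proline and nitrogen list had 7 of 18 lower and none higher, 4 lower with vector replicates 5, 6 and 7 averaged, and the copper list 2 of 12 in each direction, with 5 lower and 3 higher without CFTR replicate 1.

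For phosphate, 7 of 22 genes fell (31.8%, against 17.0% of all genes) and 1 rose, with 3 higher without vector replicate 4. GIT1, a glycerophosphoinositol transporter, stood at -2.17, -2.51, -2.63 and -2.48 on the CFTR arrays, against -1.37, -0.82, -0.46 and -0.78 on the vector arrays (adjusted p = 0.00036), with the CFTR level under the background limit. With a floor at that limit the log2 fold change of GIT1 was -0.37 (adjusted p = 0.088). SPL2, a regulator of phosphate uptake, averaged -0.50 ± 0.18 in CFTR and 0.15 ± 0.13 in vector (SD, n = 4 each, adjusted p = 0.0014). PHO84, the high-affinity phosphate transporter, had 1.85, -0.46, -0.53 and 1.62 in CFTR, against 1.64, 2.51, 2.21 and 2.11 in vector. Its CFTR arrays fell into a low and a high pair, and the test was not passed (adjusted p = 0.056), though it was without CFTR replicate 1 (-1.91, adjusted p = 0.016) or CFTR replicate 4 (-1.83, adjusted p = 0.037). SUL1, a sulfate permease, fell by 1.09 (adjusted p = 0.0073), a call lost with vector replicates 5, 6 and 7 averaged (adjusted p = 0.067). In the sulfur list 3 of 23 fell and 3 rose, with 5 falls without CFTR replicate 1 or vector replicate 4. No gene of that list fell with vector replicates 5, 6 and 7 averaged. MET28, a regulator of sulfur genes, rose 1.69-fold. The iron list was led by vector replicate 4, whose mean over 23 genes was 0.97, against -0.58, -0.90 and -0.70 in the other vector arrays and -0.42, -0.76, -0.80 and -0.72 in CFTR, and 1 gene rose and 1 fell.

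Channels and transporters, the functional class of CFTR, showed no common direction. Of 21 measured ABC transporter genes 4 rose (19.0%) and 3 fell (14.3%), against 26.9% and 17.0% of all genes, with a median of -0.04. YOR1, a plasma membrane drug pump, averaged 0.26 ± 0.06 in CFTR and -0.07 ± 0.10 in vector (SD, n = 4 each, adjusted p = 0.0034). PDR5, the main drug efflux pump, rose by 0.31 (adjusted p = 0.010, and 0.075 with vector replicates 5, 6 and 7 averaged). YBT1, a vacuolar transporter of bile acids, fell by 0.34, and YCF1, a vacuolar pump of glutathione conjugates, by 0.21 (adjusted p = 0.042), a call that was lost without any 1 of 6 arrays (CFTR replicates 1 to 4 and vector replicates 5 and 6, adjusted p 0.053 to 0.10). The list had 7 rises without vector replicate 4 and 1 fall without CFTR replicate 3. Ion pumps, channels and aquaporins had 5 of 21 in each direction (23.8%), with 1 rise once vector replicates 5, 6 and 7 were averaged. AQY2, an aquaporin, stood at -1.30, -1.58, -1.86 and -1.51 on the CFTR arrays, against 0.43, -0.24, -0.06 and 0.07 on the vector arrays (3.06-fold lower, adjusted p = 0.00020), with the CFTR arrays under the background limit. The calcium channel gene CCH1 fell by 0.50 and the glycerol channel gene FPS1 rose by 0.31.

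Of 28 genes of the G1 to S transition 12 fell (42.9%, against 17.0% of all genes), 1 rose and 15 were not called, with a median of -0.14. CLN2, a G1 cyclin, stood at -0.37, -0.43, -0.15 and -0.61 on the CFTR arrays, against 0.25, 0.27, 0.27 and 0.37 on the vector arrays (1.60-fold lower, adjusted p = 0.00075). All 7 vector arrays, with 0.05, 0.42 and 0.01 in replicates 1 to 3, were above the highest CFTR array. CLN1 fell 1.43-fold. In the G2 to M and early G1 list 13 of 29 fell (44.8%), 2 rose and 14 were not called (median -0.17), and ASH1, which blocks mating type switching in daughter cells, averaged 0.35 ± 0.23 in CFTR and 1.23 ± 0.19 in vector (SD, n = 4 each, adjusted p = 0.0011). DSE2, a daughter cell glucanase of cell separation, fell by 0.53. Of 30 cell wall integrity genes 16 fell (53.3%) and none rose, with a median of -0.15. KDX1, a kinase-related gene of the pathway, fell by 1.04, its CFTR mean of -1.86 being under the background limit (-0.37 with a floor there, adjusted p = 0.049), and RLM1, the pathway's transcription factor, fell by 0.73. That list had 9 falls with vector replicates 5, 6 and 7 averaged. GPI12, of GPI anchor synthesis, was at 0.05 ± 0.04 in CFTR and 0.69 ± 0.08 in vector (adjusted p = 8.4e-05).

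General stress genes did not move as a group. Of 32 measured genes 10 rose (31.25%) and 6 fell (18.75%), near the shares of all genes (26.9% and 17.0%), with a median of 0.13. TSL1, of trehalose synthesis, averaged 2.09 ± 0.10 in CFTR and 1.22 ± 0.24 in vector (SD, n = 4 each, adjusted p = 0.00072), and GSY1, a glycogen synthase, rose 1.88-fold. USV1, a stress-induced regulator, fell by 0.94, and CTT1, the cytosolic catalase, was at 0.43 ± 0.43 in CFTR and -0.05 ± 0.43 in vector (adjusted p = 0.16). The mean of the list was 1.62, 1.44, 1.34 and 1.55 on the CFTR arrays, against 1.80, 1.26, 1.28 and 1.40 on the vector arrays and 0.52, 0.56 and 1.56 on vector replicates 1 to 3. Vector replicate 4 was the highest of all and replicates 1 and 2 far the lowest. The list had 19 rises without vector replicate 4, 3 without vector replicate 5, and 3 with vector replicates 5, 6 and 7 averaged. Against vector codes 3 to 5 its median was 0.50, and that of all genes -0.15. Of 21 glycolysis and fermentation genes 8 fell and 1 rose, a count of falls that was 2 without CFTR replicate 2 and with vector replicates 5, 6 and 7 averaged, and 1 under quantile normalization. The median of that list was -0.08, and turned to 0.02 under quantile normalization.

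Cytosolic ribosomal proteins stayed near the median of all genes, with 4 of 128 higher (3.12%), 3 lower and a median of -0.01, which turned to 0.04 under quantile normalization. Without vector replicate 4, 24 of them were lower, and under quantile normalization 17 were higher. In ribosome biogenesis 8 of 69 rose (11.6%) and 7 fell (10.1%), shares below those of all genes (26.9% and 17.0%). Falls numbered 14 without vector replicate 4 and 2 without vector replicate 5. Rises numbered 3 without CFTR replicate 2 and 14 without vector replicate 6. With vector replicates 5, 6 and 7 averaged 7 rose and none fell. Among RNA polymerase I and III genes 11 of 26 rose and MAF1, the repressor of polymerase III, fell. The rises numbered 6 without CFTR replicate 2 or 3 and 8 with vector replicates 5, 6 and 7 averaged. Against vector codes 3 to 5 the medians of the ribosome biogenesis and polymerase lists were -0.46 and -0.36, both below the median of all genes there, -0.15. Histone genes had 6 of 10 lower, by 0.22 for HTB1, and 3 without CFTR replicate 2, vector replicate 5 or vector replicate 7. The count was also 3 with vector replicates 5, 6 and 7 averaged.

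The result depended on which vector arrays served as controls. Both comparisons share the CFTR arrays, so the test of the difference between the CFTR effects is a test of the vector arrays of codes 11 to 14 against those of codes 3 to 5. It called 2585 genes (47.4%), with a CFTR effect more positive against codes 11 to 14 in 1971 (36.2%) and more negative in 614 (11.3%). Vector replicates 1 and 2 had higher medians over all genes than the other arrays, and the part of this in the split was not tested. The count was 2174 under quantile normalization and 2155 under median centring. Against vector codes 3 to 5, a fit on those 7 arrays called 1 gene, UBA1 (0.0184%, limma adjusted p = 0.016), while 1520 had an unadjusted p under 0.05. With the spread taken from all 11 arrays, an alternative chosen after seeing the data, that comparison called 41 genes (0.752%), 17 higher and 24 lower, so the counts of 1 and 2585 come from different fits. Of the 1466 genes that rose against codes 11 to 14, the rise was larger than against codes 3 to 5 by that test in 1130 and smaller in 3. Of the 927 that fell, the fall was larger in 372 and smaller in 16. Both sets were picked by their difference from vector codes 11 to 14, arrays that the difference test also uses. These splits therefore lean towards larger in advance and are a description only. The count of the difference test was 1218 without vector replicate 1, 1175 without vector replicate 2 and 3867 without vector replicate 3.

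The position of the arrays left out was measured per gene on a scale where 0 is the mean of vector codes 11 to 14 and 1 the CFTR mean, as a description with no test. Over the genes that rose, vector replicates 1, 2 and 3 had median positions of 1.49, 1.55 and 0.841. Over the genes that fell, they had 0.35, 0.28 and 0.934. Vector replicates 1 and 2 had medians over all genes tested of 0.05 and 0.10, against -0.32 to -0.24 on the other arrays. On this scale a higher level moves the position up for rises and down for falls, and the part of this in the positions was not tested. For the rises the 3 arrays were alike in how often they lay nearer the CFTR mean, in 1160 (79.1%), 1196 (81.6%) and 1196 (81.6%) of 1466 genes. For the falls they were not, with 400 (43.2%), 397 (42.8%) and 795 (85.8%) of 927 genes. These genes were chosen for their difference between CFTR and vector codes 11 to 14. For some of them vector replicate 3 lay at the level of vector codes 11 to 14 or beyond, away from CFTR, at positions of 0.07 for KAR2, -0.06 for SUL1, -0.17 for SPL2 and -0.40 for SPT14, and for UBA1 at 0.32.

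**Figure D5:**
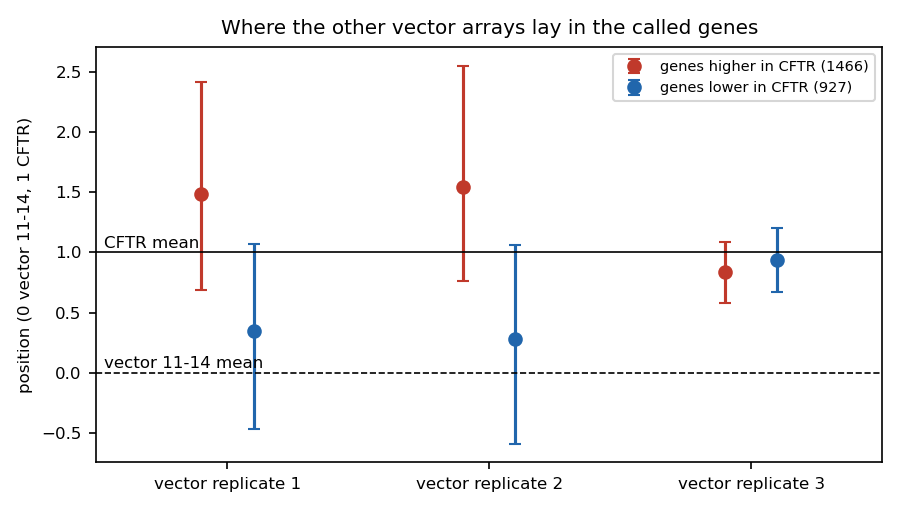
Position of each vector array left out of the comparison, on a scale where 0 is the mean of vector codes 11 to 14 and 1 the CFTR mean. Points are medians and bars the quartiles over the 1466 genes that rose (red) and the 927 that fell (blue) in CFTR. Vector replicate 3 lies at 0.841 and 0.934, close to the CFTR mean for both sets.

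Genes apart from every vector array were few. On 131 genes all 4 CFTR arrays lay above all 7 vector arrays (2.40%) and on 182 below (3.34%), and 125 and 159 of these were among the genes called against codes 11 to 14. Among the genes described above, those above all 7 were SSA4, SNZ1, CUR1, MDJ1, UBA1, YDJ1, STI1, AHA1, CPR6, HCH1, HSP82, MBF1, HSP104, SCJ1, ERO1, ERV29, KAR2, RPN13, SGT2, ADE1, MET28, ULI1 and SNO1. HCH1 is a co-chaperone of Hsp90 and MBF1 a transcriptional coactivator. Those below all 7 were GPI12, SPT14, YBT1, GIT1, SPL2, SUL1, CLN1, CLN2 and ASH1, SPT14 being a gene of GPI anchor synthesis with a CFTR mean of -1.66, under the background limit. With a floor at that limit SNO1, ULI1, GIT1 and SPT14 were no longer called, with adjusted p between 0.088 and 0.43. None of the thiamine, biotin, proline or copper genes with the largest falls were among them.

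Of the 15 largest rises, 4 genes lay outside the lists. YDL241W and YOL014W, of unknown function, rose by 1.57 and 1.39. ATO3, an ammonium exporter, had 0.56, 1.30, 1.18 and 1.36 in CFTR, against -0.55, 0.18, -0.19 and -0.03 in vector. In vector replicates 1 to 3 ATO3 stood at 1.72, 1.69 and 1.20, YDL241W at 0.86, 0.72 and 0.58 and YOL014W at 1.5, 1.32 and 1.52, each above every array of vector codes 11 to 14. LST8, a subunit of the TOR kinase complexes, averaged 1.15 ± 0.03 in CFTR and -0.01 ± 0.08 in vector (SD, n = 4 each, adjusted p = 1.4e-05), and stood at 0.64, 0.64 and 1.27 in vector replicates 1 to 3.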

How the data were processed

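RNA abundance was measured on 11 Affymetrix yeast arrays, and the authors deposited probe set intensity values on a linear scale on which each array averages 1. Per the labels' protocols, hot phenol extraction and column cleanup gave the RNA, which an Affymetrix IVT kit turned into labelled cRNA. Software, background correction and summarisation: not given in the sources used here. Of 10715 probe sets, 5498 matched 1 gene through the platform annotation and the R64 gene table, 1746 named a gene not in that table, 1 named several and 3470 named none. Where a gene had several probe sets (47 genes) the brightest was used. Values were taken as log2 with no floor.

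CFTR replicates 1 to 4 were compared with vector replicates 4 to 7 by limma 3.58.1 (R 4.3.3; lmFit and eBayes with an intensity trend), and p-values were adjusted over all 5449 genes by Benjamini-Hochberg, with a threshold of 0.05. CFTR was set against vector codes 3 to 5 in a fit on those 7 arrays. The difference of the CFTR effects between code ranges came from a fit on all 11 arrays in 3 groups. Plots used matplotlib 3.10.9 (Python 3.11.15). On simulated data with 5449 genes the test recovered 88.1%, 97% and 100% of genes changed by 0.5, 1 and 2 on the log2 scale, and 11 of 201 calls were false. The simulation drew independent noise for each array and changed 67, 67 and 66 genes by these sizes, far fewer than were called in the data. Near copies and blocks of arrays were not built in, so it gives no error rate for the real comparison.

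Genes were named if they belonged to the top 15 rises or top 15 falls by size (called, mean level above the 25th percentile, groups not overlapping), to the 5 members of a list with the smallest p, or to a fixed set of genes. The arrays, genes and lists were chosen with earlier results of these data known. The biotin, low-oxygen, copper, and proline and nitrogen lists, and the genes BIO2, ULI1, TIR1, HEM13 and SNO1, were added after values were seen. CFTR replicate numbers are names in accession order and pair nothing. Near-identical genes such as TDH2 and TDH3, THI5, THI11, THI12 and THI13, and PHO11 and PHO12 may share signal. Alternatives changed the normalization, the filter on dim genes, the variance model, the handling of several probe sets and the arrays used.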

Additional observations from a re-analysis of the deposited data

Results flagged for a closer look

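Within groups of 4 arrays, the highest or lowest value stood far from the others, by Dixon's criterion, for 28 values over 254 gene and group combinations, where chance gives about 1 in 20. Vector replicate 4 gave 15 of these. It was the lone high value for SSA4 (0.11), SIS1 (2.17), HSF1 (-0.73), YOR1 (0.07), AQY1 (-0.85), ADE1 (0.66), ZRG17 (-0.04), KDX1 (-0.45), PCL9 (0.54) and ULI1 (-1.60). It was the lone low value for TIR3 (-1.41), YOL014W (-0.97), LST8 (-0.13), MF(ALPHA)2 (1.52) and SAG1 (0.97). CFTR replicate 1 stood low for TIR3 (-0.20), AAC3 (-1.22), SIS1 (2.88) and HEM13 (1.12), and high for ATP14 (1.92). CFTR replicate 2 stood apart for ALG13 (-0.28) and STR2 (-0.12), and CFTR replicate 3 for RPT2 (1.32) and ZRT1 (3.48). Vector replicate 6 stood low for BIO4 (0.66), GCV2 (0.58) and SNO1 (-2.98), and vector replicate 7 high for MF(ALPHA)1 (3.47). These are levels in log2 scaled intensity.

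The CFTR effect differed between the vector code ranges for 2585 genes by the test of the difference in limma, which compares vector codes 11 to 14 with codes 3 to 5.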

How the results depend on the processing

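No paired analysis was possible because the CFTR arrays carry no replicate numbers in their labels. The number of genes called, 2393, became 1364 with vector replicates 5, 6 and 7 averaged (853 higher, 511 lower), 1244 in the fit on 11 arrays (754 higher, 490 lower), 70 with a change of at least 2-fold also required (23 higher, 47 lower), and 50 with all 7 vector arrays as controls (27 higher, 23 lower); the first and last were chosen after seeing the data. Fewer replicates and a group that spans vector replicate 3 are part of how these alternatives are built. Leaving out 1 array gave 1915 to 2741 calls, 1142 to 1696 higher and 746 to 1045 lower. Quantile normalization, median centring, no trend, robust variance, array weights, the dim filter, a floor and the mean of probe sets gave 1719 to 3278 calls, and no gene was called in the other direction in any setting run. The difference between code ranges, 2585 genes, became 4702 with array weights and 1175 to 3867 without 1 array (1218 without vector replicate 1 and 1175 without vector replicate 2); the cause was not tested. With all 7 vector arrays the log2 fold change turned sign for HSP12 (0.0526), ZRT1 (0.00967), TDH3 (0.0449), PGK1 (0.0805), STE3 (-0.0567) and a gene of the signal recognition particle receptor (-0.0177); HSP26 turned to -0.18 with vector replicates 5, 6 and 7 averaged and PGK1 to 0.0166 under quantile normalization. The median of the sulfur and of the thioredoxin lists turned below 0 under median centring. Signal under the background limit of -1.19 limits the size of change that can be read.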

Other observations

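Against 26.9% of all genes higher and 17.0% lower, ergosterol synthesis genes had 5 of 25 higher (20%) and none lower, with a median log2 fold change of 0.14. That count was 2 without CFTR replicate 4 or vector replicate 7, and 1 with vector replicates 5, 6 and 7 averaged. Autophagy genes had 5 of 25 higher (20%) and none lower, ATG1, the kinase that starts autophagy, among them. The count was 11 without vector replicate 4, 3 without vector replicate 5 and 2 with vector replicates 5, 6 and 7 averaged. Vacuolar sorting and ESCRT genes, which carry membrane proteins to the vacuole for degradation, had 8 of 20 higher (40%) and 1 lower. The rises numbered 12 without vector replicate 4, 5 without CFTR replicate 2 or 3 or vector replicate 5 or 7, and 4 with vector replicates 5, 6 and 7 averaged. Pheromone and mating genes had 4 of 23 higher and 6 lower (26.1%), with 2 higher once vector replicates 5, 6 and 7 were averaged. Mitochondrial import genes had 1 of 32 higher and 5 lower (15.6%). The falls numbered 14 without CFTR replicate 1, 11 without vector replicate 4, 2 without CFTR replicate 2 or vector replicate 5, 6 or 7, and 1 with vector replicates 5, 6 and 7 averaged. Fatty acid oxidation and peroxisome genes had 7 of 24 lower (29.2%) and 1 higher.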
